A study of Homo sapiens with 8 samples.

Results

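SETD7, ZBTB38, PM20D2 and MIS12 were examined in L363 cells given the IKKβ inhibitor MLN120B, because their log2 ratios to DMSO-treated cells had been seen to lie above 0. They were taken as all array features that the platform annotation pairs with these 4 symbols, which gave 6 of the 15246 features. SETD7, PM20D2 and MIS12 had 1 feature each and ZBTB38 had 3. Averaged by gene, they made 4 of 5411 rows that could be tested, a row being a named gene or an unnamed feature. As the ratios to DMSO chose the genes, these ratios are described without a test. Differences between treatment times, which a choice of ratios above 0 does not fix, were tested. The choice was made on the same arrays, so it may still bear on the spread that these tests use.

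L363 is an established human cell line that the labels give as multiple myeloma, a plasma cell cancer of the bone marrow. MLN120B is a small molecule that inhibits IKKβ, the kinase that frees NF-κB from its cytoplasmic inhibitors. Cells were kept at 37 °C with 12.5 µM MLN120B for 8 h (samples 1 and 2), 12 h (samples 1, 2 and 3) or 24 h (samples 1, 2 and 3), and the control was L363 cells given the solvent DMSO alone. RNA of treated cells was labelled with Cy5 and RNA of DMSO-treated cells with Cy3, and both were read on 1 spotted array for each sample. The same dye marked the treated cells on all 8 arrays, so a dye bias of a feature and the treatment cannot be told apart. Whether samples of a time are separate cultures is not given in the labels, so the p-values rest on a spread between samples that may be technical.

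The 4 genes belong to unrelated pathways. SETD7 encodes a SET-domain lysine methyltransferase that adds a single methyl group to lysine 4 of histone H3 and to many non-histone proteins, among them p53, DNMT1 and the NF-κB subunit RelA. ZBTB38 encodes a zinc finger protein with a BTB domain that binds methylated DNA and is known mainly as a transcriptional repressor; the ubiquitin ligase RBBP6 lowers its amount, and it represses the replication factor gene MCM10. PM20D2 encodes an M20-family dipeptidase that splits side products of carnosine synthesis such as β-alanyl-lysine. MIS12 encodes a subunit of the MIS12 complex, the part of the kinetochore that joins the centromere to KNL1 and to the microtubule-binding NDC80 complex.

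Values are log2 ratios from which the median of the array was subtracted. Their direction is likely MLN120B over DMSO, from the dyes in the labels, but it is not stated; with the sign turned, every direction below would turn, the sizes of ratios would stay, and shares of features or rows would be counted from the other end. Arrays held between 6344 and 13007 values. Their spread over features differed by database run, a name used here for stretches of consecutive database numbers in the labels. Run 3 (sample 1 at 8 h, sample 2 at 12 h and 24 h) had SDs from 0.21 to 0.28, run 1 (sample 3 at 12 h and 24 h) had 0.35 and 0.58, and run 2 (sample 2 at 8 h, sample 1 at 12 h and 24 h) had 1.00 to 1.42. The Pearson correlation over rows was 0.12 to 0.57 between arrays that share a run (7 pairs) and -0.21 to 0.096 between the others (21 pairs). All 9 listed plasma cell markers could be tested, with a median ratio of 0.14 and 5 above 0. Of the markers of T cells, myeloid cells, erythroid cells and stroma, 4, 3, 3 and 2 could be tested, with medians of -0.26, 0.20, 0.067 and -0.21, and 0 of all these markers passed in limma's test. Ratios to the same cell line show no level of a marker, so the cell type of the line was not checked by them.

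Promoters are shown because the inhibitor acts on NF-κB, and because the 4 genes were grouped by a shared direction. RefSeq windows of 300 bases (GRCh38.p14, from 250 bases before to 50 after a start) were found for all 4 symbols: 1 for SETD7, 10 for ZBTB38, 1 for PM20D2 and 2 for MIS12. For each gene the window with the highest ratio of observed to expected CpG is printed, 5′ to 3′ on the strand of the gene, with CCAAT and GGGCGG on either strand in capitals. The SETD7 window lies at chr4:139556170-139556469 on the minus strand. The ZBTB38 window, the ninth of its 10, lies at chr3:141402099-141402398 on the plus strand, and the PM20D2 window at chr6:89145805-89146104 on the plus strand. The MIS12 window, its second, lies at chr17:5486316-5486615 on the plus strand.
SETD7: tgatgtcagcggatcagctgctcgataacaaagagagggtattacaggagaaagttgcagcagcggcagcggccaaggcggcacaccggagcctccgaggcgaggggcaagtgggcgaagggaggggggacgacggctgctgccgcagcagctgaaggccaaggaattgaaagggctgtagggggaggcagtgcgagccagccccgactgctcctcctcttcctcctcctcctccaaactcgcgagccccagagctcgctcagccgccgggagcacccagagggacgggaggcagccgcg
ZBTB38: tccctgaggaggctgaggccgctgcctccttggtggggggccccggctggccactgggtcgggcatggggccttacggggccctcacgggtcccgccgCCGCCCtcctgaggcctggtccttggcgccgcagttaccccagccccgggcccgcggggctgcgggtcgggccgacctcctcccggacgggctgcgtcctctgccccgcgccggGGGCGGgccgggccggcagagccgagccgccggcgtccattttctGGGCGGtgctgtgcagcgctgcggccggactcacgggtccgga
PM20D2: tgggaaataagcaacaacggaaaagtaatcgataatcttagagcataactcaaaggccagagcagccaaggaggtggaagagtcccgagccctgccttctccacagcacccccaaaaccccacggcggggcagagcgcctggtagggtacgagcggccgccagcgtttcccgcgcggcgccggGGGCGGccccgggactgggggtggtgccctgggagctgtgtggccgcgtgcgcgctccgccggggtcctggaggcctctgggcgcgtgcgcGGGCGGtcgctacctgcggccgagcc
MIS12: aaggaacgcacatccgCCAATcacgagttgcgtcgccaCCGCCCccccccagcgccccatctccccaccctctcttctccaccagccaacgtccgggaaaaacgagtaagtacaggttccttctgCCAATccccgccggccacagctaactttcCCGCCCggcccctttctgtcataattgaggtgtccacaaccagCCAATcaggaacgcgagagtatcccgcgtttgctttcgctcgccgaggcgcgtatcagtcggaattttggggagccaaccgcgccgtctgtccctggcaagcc

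Each of the 4 printed windows had a G and C content above 58.7%, the median of 35116 windows. It was 66% for SETD7, 78.3% for ZBTB38, 68.7% for PM20D2 and 61.3% for MIS12. These exceeded 69.6%, 95.5%, 76.4% and 56.8% of all windows, in the same order. Observed over expected CpG was 0.68 for SETD7, 0.76 for ZBTB38, 0.88 for PM20D2 and 1.03 for MIS12 (median of all windows 0.58). The windows of ZBTB38 and MIS12 were picked by that ratio, so its height there is no finding, while SETD7 and PM20D2 had 1 window each. The other 9 windows of ZBTB38 had 0 to 0.55, all under that median, and a G and C content of 37.3% to 62.7%. The first MIS12 window had 0.91. A κB form, GGG followed by any bases at the next pair of positions and then by TTTCC, was in 0 of the 14 windows of the 4 genes and in 1.91% of all windows, both strands searched. The printed MIS12 window held CCAAT at positions -234, -125 and -53, counted from the start, and GGGCGG on the opposite strand at -212 and -96. GGGCGG lay at -67 and 24 in the PM20D2 window, and at -152 (opposite strand), -38 and 7 in the ZBTB38 window. CCAAT was in 34.6% and GGGCGG in 45.0% of all windows. The motifs CACGTG (7.26% of all windows), TGACG (24.6%) and TATAAA (11.5%) were in none of the 4 printed windows, and the SETD7 window held none of the 6 motifs. Over all 14 windows CCAAT was in 7 (5 of ZBTB38, 2 of MIS12), GGGCGG in 6, TGACG in 2 and TATAAA in 1 (all 3 of ZBTB38), and CACGTG in 0. The MIS12 windows share 295 and 113 bases with promoter windows of DERL2, which starts on the opposite strand; no feature was annotated to DERL2. The PM20D2 window likewise shares 152 and 169 bases with windows of LOC101929004 on the opposite strand. A match or its absence describes these letters in these windows and nothing about a factor.

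SETD7 had a ratio above 0 on 8 of 8 arrays and was the steadiest of the genes with a single feature. It was 0.19 and 0.46 at 8 h (samples 1 and 2), 0.85, 0.30 and 0.45 at 12 h (samples 1, 2 and 3) and 0.67, 0.52 and 0.23 at 24 h (samples 1, 2 and 3). The low value at each of 8 h and 12 h lay on an array of run 3, and the ranges of the 3 times overlapped. The mean over the 3 times was 0.44 ± 0.13 (SE, n = 8, the arrays taken as independent), a fold of 1.36. Run 1 had a mean of 0.34, run 2 of 0.66 and run 3 of 0.34. Its SD over arrays, 0.22, was smaller than that of all but 7.14% of the 3460 rows with 8 values, whose median SD was 0.45. The gene was chosen by its ratios on these same arrays, so this place of its SD is no finding. In these bulk cultures a higher ratio from more cells with the transcript and one from more transcript in each cell cannot be told apart.

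ZBTB38 was above 0 on 8 of 8 arrays as a mean of its features, but its 3 features did not do the same. Feature A, with a value on all arrays, was 0.20 and 0.31 at 8 h (samples 1 and 2), 0.23, 0.27 and 0.61 at 12 h (samples 1, 2 and 3) and 0.98, 0.32 and 0.39 at 24 h (samples 1, 2 and 3). Feature B, with 7 values, was 0.32 and 0.18 at 8 h (samples 1 and 2), -0.17, 0.45 and 0.78 at 12 h (samples 1, 2 and 3) and -0.83 and 0.29 at 24 h (samples 1 and 2). Feature C, with 5 values, was 2.23 on sample 2 at 8 h, 1.17 and -0.36 on samples 1 and 3 at 12 h and 0.48 and 0.26 on samples 1 and 3 at 24 h. Feature A was thus above 0 on 8 of 8 arrays, feature B on 5 of 7 and feature C on 4 of 5.

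The features of ZBTB38 parted most on the arrays of run 2. On sample 1 at 24 h feature A stood at 0.98 and feature B at -0.83, a gap of 1.81, and on sample 2 at 8 h features C and B were 2.05 apart. Features A and B had opposite signs on 2 of 7 shared arrays, A and C on 1 of 5, and B and C on 3 of 4. On run 3, where feature C had no value, features A and B ran from 0.20 to 0.32 and from 0.29 to 0.45, all above 0. The annotation gives all 3 features to ZBTB38, and which part of the transcript each reads was not examined here.

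**Figure D1:**
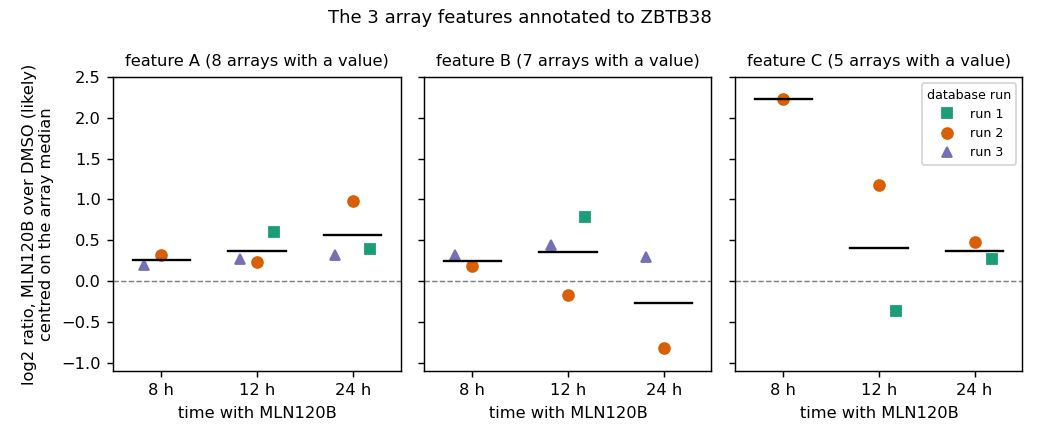
The 3 features annotated to ZBTB38, each in a panel, with time with MLN120B across and the centred log2 ratio (likely MLN120B over DMSO) upward. Points are arrays, shaped by database run, and bars are means per time; feature A is above 0 on 8 of 8 arrays, while feature B reaches -0.83 and feature C 2.23, both on arrays of run 2.

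Averaging the features of ZBTB38 gave 0.26 and 0.91 at 8 h (samples 1 and 2), 0.41, 0.36 and 0.34 at 12 h (samples 1, 2 and 3) and 0.21, 0.31 and 0.33 at 24 h (samples 1, 2 and 3). The mean over the 3 times was 0.41 ± 0.12 (SE, n = 8), a fold of 1.33. The SD over arrays, 0.22, was smaller than that of all but 6.76% of rows, though single features spread from -0.83 to 2.23. This place too rests on the ratios that chose the gene and is no finding. Taken alone, feature A had a mean of 0.40 ± 0.14 and feature B a mean of 0.11 ± 0.19, where feature B has 7 values and the fit leaves out the missing array. Feature C had 1 value at 8 h and was not fitted alone.

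PM20D2 had the widest spread over arrays of the 4 gene means. Its mean over the 3 times was the highest, though not with array weights or without sample 1 at 8 h. It was 0.46 and 0.06 at 8 h (samples 1 and 2), 1.25, 0.17 and 0.82 at 12 h (samples 1, 2 and 3) and 1.20, 0.35 and 0.42 at 24 h (samples 1, 2 and 3). The 2 values above 1 were those of sample 1 at 12 h and 24 h, both of run 2, and the lowest, on sample 2 at 8 h, was also of run 2 and was -0.036 before centring. The mean over the 3 times was 0.55 ± 0.17 (SE, n = 8), a fold of 1.47, and 0.36 with array weights, which limma estimates from each array's deviations; with these weights ZBTB38 (0.42) and SETD7 (0.37) stood above it. Without sample 1 at 8 h PM20D2 was at 0.4879, with ZBTB38 at 0.5207 and SETD7 at 0.4881. For PM20D2 run 1 had a mean of 0.62, run 2 of 0.84 and run 3 of 0.33. Its SD over arrays, 0.45, was near the median of all rows.

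MIS12 was above 0 on 8 of 8 arrays, and its size differed between runs. It was 0.16 and 0.49 at 8 h (samples 1 and 2), 0.83, 0.11 and 0.51 at 12 h (samples 1, 2 and 3) and 1.06, 0.18 and 0.18 at 24 h (samples 1, 2 and 3). On run 3 it stayed between 0.11 and 0.18, and on run 2 between 0.49 and 1.06, so those runs did not overlap. The mean over the 3 times was 0.43 ± 0.15 (SE, n = 8), a fold of 1.34. That mean was 0.22 without run 2, 0.28 after quantile normalization and 0.27 with array weights. The wide spread of all features on run 2 moves with this gene, and its part in the result was not tested.

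**Figure D2:**
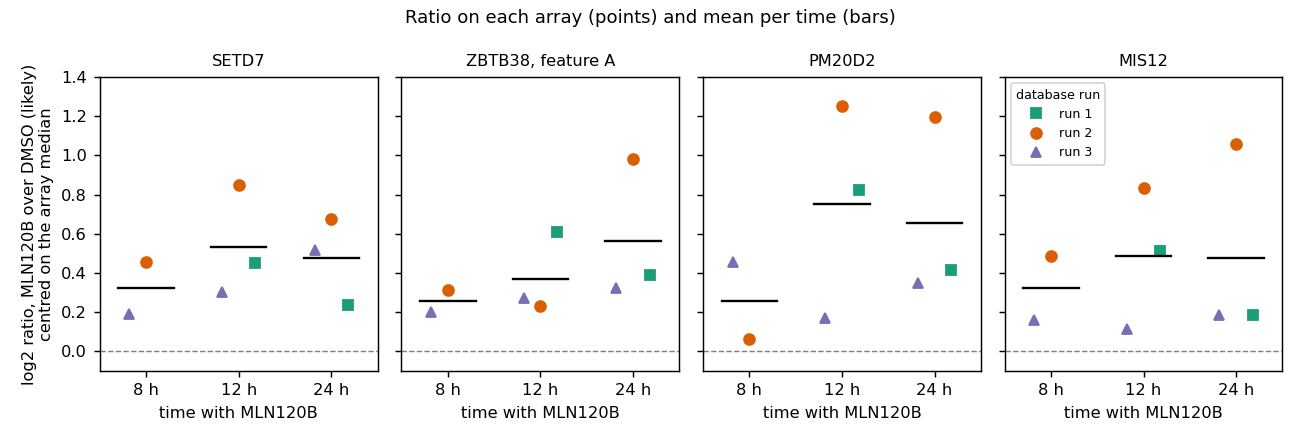
Centred log2 ratio (likely MLN120B over DMSO) of SETD7, ZBTB38 feature A, PM20D2 and MIS12 on each of the 8 arrays, by time with MLN120B. Points are arrays, shaped by database run, and bars are means per time; all points lie above 0, from 0.06 to 1.25, and the highest point of each panel is an array of run 2.

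In the order of their means stood PM20D2 (0.55), SETD7 (0.44), MIS12 (0.43) and ZBTB38 (0.41), and each neighbour in this order was closer to the next than the SEs of 0.12 to 0.17. These SEs take the arrays as independent, though arrays that share a run were more alike. With the run as a random block the SEs were 0.21, 0.15, 0.18 and 0.15, in the same order. A ratio above 0 on all 8 arrays was met by 48 of the 3460 rows with 8 values (1.39%), and the 4 genes are among these 48 by the way they were chosen. Before centring, SETD7 and MIS12 were above 0 on 8 of 8 arrays and PM20D2 and feature A of ZBTB38 on 7 of 8. For the mean over the 3 times, 0 of 5411 rows passed an adjusted p of 0.05 in limma's test (0%), and 184 had an unadjusted p under 0.05. Leaving out sample 1 at 8 h gave 50 rows past the threshold and leaving out sample 3 at 12 h gave 1, the lone sample left at 8 h being assumed to vary like the others.

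The place of a feature among all features of its array stays the same if all ratios of that array are multiplied by a common factor. Whether the wide spread of run 2 is such a factor was not tested. On run 2 SETD7 had ratios of 0.456 to 0.8465 and places of 71.4% to 80.4%. On run 3 it had ratios of 0.192 to 0.518 and places of 84.2% to 96.0%. SETD7 had a higher ratio than 71.4% to 96.0% of features, with a median over arrays of 83.2%, and lay above the 75% mark on 7 of 8 arrays. PM20D2 ran from 53.3% to 98.1% with a median of 91.4%, and was above 75% on 7 of 8 arrays. MIS12 ran from 66.9% to 91.5% with a median of 77.4%, and was above 75% on 6 of 8. With the sign turned, the places would be 3.94% to 28.6% (median 16.7%) for SETD7, 1.89% to 46.7% (median 8.53%) for PM20D2 and 8.53% to 33.0% (median 22.6%) for MIS12. On this scale, as signed here, the highest arrays of SETD7 (96.0%) and PM20D2 (98.1%) belonged to runs 3 and 1, and only MIS12 of these 3 genes had its highest place (91.5%) on run 2.

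Features of ZBTB38 took very different places. Feature A ran from 58.7% to 93.4%, and its 3 places on run 3 were close, between 85.3% and 87.8%. Feature B ran from 85.8% to 96.9% on run 3 and reached 97.5% on its single array of run 1, but lay between 20.7% and 59.3% on run 2. Feature C ran from 72.5% to 96.2% on run 2 and stood at 25.3% and 85.2% on the arrays of run 1. With the sign turned, feature A would run from 6.56% to 41.3%, feature B from 2.49% to 79.3% and feature C from 3.82% to 74.7%.

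**Figure D3:**
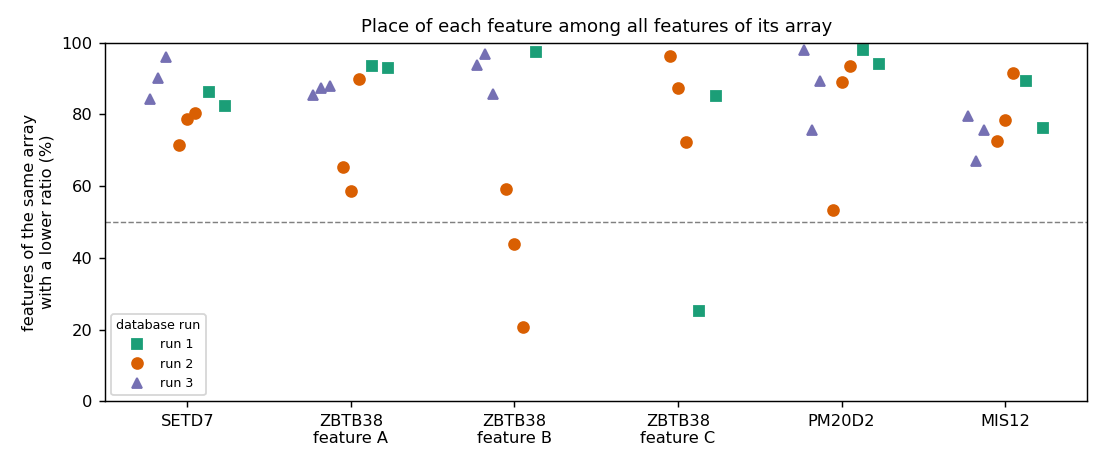
Share of all features of the same array with a lower ratio (%), for each of the 6 features on each array, shaped by database run. The dashed line marks the middle of an array; SETD7 and MIS12 lie above it on all 8 arrays, from 66.9% to 96.0%, while ZBTB38 features B and C reach down to 20.7% and 25.3%.

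No difference between times passed the test for any of the 4 genes, so a rise along the times was not shown. Gene means above 0 at the 3 times follow from how the genes were chosen. Feature B of ZBTB38 averaged -0.27 at 24 h. PM20D2 averaged 0.75 at 12 h against 0.26 at 8 h, a difference of 0.49 ± 0.42 (SE, n = 8; 95% interval -0.47 to 1.45; adjusted p = 0.99 in limma's test). It averaged 0.65 at 24 h, which was 0.40 ± 0.42 above 8 h (95% interval -0.57 to 1.36, adjusted p = 0.99) and differed from 12 h by -0.096 (95% interval -0.96 to 0.76). Within runs these differences went both ways: 12 h minus 8 h was 1.19 in run 2 and -0.29 in run 3, and 24 h minus 8 h was 1.14 in run 2 and -0.11 in run 3.

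ZBTB38, as the mean of its features, averaged 0.28 at 24 h against 0.58 at 8 h, a difference of -0.30 ± 0.31 (95% interval -1.01 to 0.40, adjusted p = 0.99 in limma's test). That difference was -0.70 within run 2 and 0.05 within run 3, and the 8 h value of run 2 held the 2.23 of feature C. For 24 h minus 8 h feature A alone gave 0.31 and feature B alone -0.52, and for 24 h minus 12 h they gave 0.19 and -0.62. For 24 h minus 8 h, without run 2 the mean of features gave 0.06. For 12 h minus 8 h it was -0.21 ± 0.31 (95% interval -0.92 to 0.49), with -0.49 in run 2 and 0.10 in run 3.

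SETD7 averaged 0.48 at 24 h against 0.32 at 8 h, a difference of 0.15 ± 0.32 (95% interval -0.58 to 0.88, adjusted p = 0.99 in limma's test), and this was 0.22 in run 2 and 0.33 in run 3. Its 12 h minus 8 h difference was 0.21 ± 0.32 (95% interval -0.52 to 0.94), with 0.39 in run 2 and 0.11 in run 3. SETD7 was the gene whose differences from 8 h were above 0 in both runs that hold 8 h. MIS12 averaged 0.47 at 24 h against 0.32 at 8 h, a difference of 0.15 ± 0.39 (95% interval -0.73 to 1.04), with 0.57 in run 2 and 0.027 in run 3. The 24 h minus 12 h differences ran from -0.096 for PM20D2 to -0.011 for MIS12, none past the threshold, and within run 1, which has no 8 h array, they ran from -0.41 for PM20D2 to -0.016 for ZBTB38. Within run 3 they were 0.22 for SETD7, 0.18 for PM20D2, 0.073 for MIS12 and -0.052 for ZBTB38, and within run 2 they were -0.17, -0.058, 0.22 and -0.20 for the same genes in this order.

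Across all rows 0 of 5411 (0%) passed for each of the 3 differences between times in limma's test, with 44, 37 and 64 at an unadjusted p under 0.05 for 24 h minus 8 h, 24 h minus 12 h and 12 h minus 8 h. Without sample 1 at 8 h, 70 rows passed for 24 h minus 8 h and 71 for 12 h minus 8 h, the 4 genes not among them. Without sample 3 at 12 h, 1 row passed for 24 h minus 12 h and 1 for 12 h minus 8 h, and without sample 2 at 24 h, 2 rows passed for 24 h minus 12 h. The narrowest 95% interval of the 4 genes, that of ZBTB38 for 24 h minus 12 h, ran from -0.72 to 0.54, so differences of that size could not be told from 0 with these arrays.

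**Figure D4:**
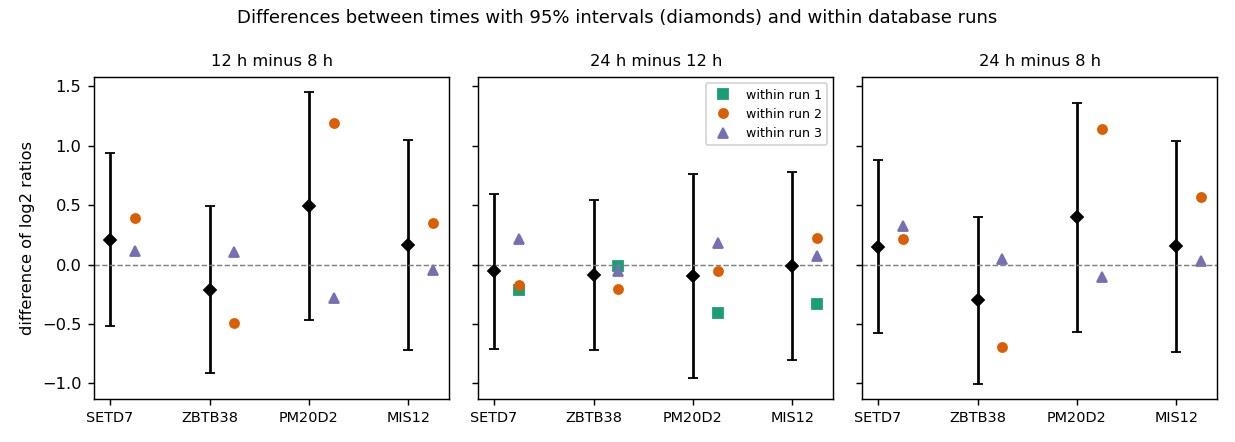
Differences of the mean log2 ratio between times for the 4 genes (ZBTB38 as the mean of its features), with 95% intervals from limma as black bars. Coloured points are the same differences within a database run; all intervals include 0, and PM20D2 and ZBTB38 show opposite signs in runs 2 and 3 for both differences from 8 h.

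For each gene the 3 named genes of most similar pattern were taken by the Pearson correlation over at least 7 arrays, after each array was divided by its SD, among 3024 genes. The points share arrays, runs and the division by SD, and likeness is given as a description without a test. SETD7 was nearest to CD1D, a lipid-presenting molecule (0.97), TDRD3, a reader of methylated arginine (0.94), and the long non-coding RNA gene GSEC (0.94). Without the division by SD these were -0.22, 0.78 and -0.50, so of these 3 genes only TDRD3 was also near on the ratios themselves. ZBTB38 was nearest to POLR3E, an RNA polymerase III subunit (0.97), BNIP1, a SNARE protein (0.96), and TUFM, the mitochondrial elongation factor (0.95). On undivided ratios these were 0.20, -0.41 and -0.46.

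PM20D2 was nearest to MAD2L1BP, which shuts off the mitotic checkpoint (0.94), TRIM4, a ubiquitin ligase (0.92), and GPLD1, a phospholipase that cuts GPI anchors (0.91). On undivided ratios these were 0.85, 0.76 and 0.55. MIS12 was nearest to MMP23B, a metalloproteinase (0.94), TMEM140, a membrane protein (0.92), and KIF14, a kinesin of cell division (0.89), with 0.45, 0.75 and 0.013 on undivided ratios. Mean undivided ratios of these 12 genes ran from -0.83 for TUFM to 0.31 for TDRD3. Patterns alike after the division were thus found at means on either side of 0. TUFM itself correlated with ZBTB38 at -0.46 on undivided ratios.

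Lists of genes around SETD7 had medians close to that of all 5411 rows, which was -0.0077 with 48.4% of means above 0 (51.6% with the sign turned). Among the 4 of 19 listed genes of histone H3 lysine 4 methylation that could be tested, 2 had a mean above 0 and 2 below, with a median of -0.057. SETD1A, the catalytic subunit of another methyltransferase complex for this lysine, was at -0.71 ± 0.29 (SE, n = 8; adjusted p = 0.87 in limma's test), below 0 on 7 of 8 arrays, and at -0.13 without run 2. KDM1A, the demethylase LSD1, was at 0.39 ± 0.25, and at 0.0036 without run 2. Of the 9 tested of 22 other SET-domain enzymes, 5 were above 0 and 4 below, from -0.19 for SUV39H1 to 0.19 for EZH2, which without run 2 were 0.028 and -0.040.

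Of 15 listed substrates of SETD7, 7 could be tested, 2 with a mean above 0 and 5 below, with a median of -0.080. STAT3 was at -0.35 ± 0.17 and RB1, the retinoblastoma protein gene, at -0.22 ± 0.16 (SE, n = 8). Both lay below 0 under all alternatives run on gene means, but at -0.034 and -0.073 without run 2. Their single features were not examined. RELA, the NF-κB subunit that SETD7 methylates, was at 0.09 ± 0.19 on 6 arrays, above 0 on 2 of them, and at -0.11 without run 2. DNMT1, the maintenance DNA methyltransferase, was at 0.063 ± 0.13, and at -0.066 at its lowest over the alternatives. No gene of these 3 lists passed over all rows.

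Relatives of ZBTB38 lay on both sides of 0. Of 15 listed genes of the ZBTB family 8 could be tested, 4 above 0 and 4 below, with a median of 0.010. ZBTB20 was at 0.62 ± 0.57, but above 0 on 1 of 6 arrays, where it was 4.93, and at -0.22 without run 2. ZBTB33, which encodes the related methyl-DNA reader Kaiso, was at -0.45 ± 0.33 on 6 arrays, above 0 on 2, and at -0.019 at its highest over the alternatives. Of 15 genes of DNA methylation and its readers 5 could be tested, 2 above 0 and 3 below. TET3, a 5-methylcytosine oxidase, was at -0.20 ± 0.19 and at 0.042 without run 2, and UHRF1, which guides DNMT1 to hemimethylated DNA, was at -0.15 ± 0.13 with values under the alternatives from -0.28 to -0.081. RBBP6, the ligase that acts on ZBTB38, was at 0.066 ± 0.15 and CTBP1, a co-repressor, at 0.11 ± 0.12. With the values as deposited both lay below 0, at -0.063 and -0.021. MCM10 had 4 values, from -0.055 to 0.29, and was not tested.

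Around PM20D2, the 3 tested of 12 listed genes of M20 peptidases and carnosine lay above 0 in their means, the median being 0.28. ACY1, the M20 enzyme aminoacylase-1, was at 0.15 ± 0.12 (SE, n = 8), above 0 on 6 of 8 arrays, and at -0.00015 at its lowest over the alternatives. CARNMT1, which methylates carnosine to anserine, was at 0.28 ± 0.20, and SLC15A2, a transporter of di- and tripeptides, at 0.38 ± 0.27 (7 arrays each, 6 above 0). Both stayed above 0 under all alternatives run on gene means, from 0.14 to 0.39 and from 0.15 to 0.50. The adjusted p over all rows was 0.87 for each of the 3 genes, and their shared direction was not tested.

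Few of the partners of MIS12 in the kinetochore could be tested, and they lay on both sides of 0. Of the 9 other genes of the KMN network, the kinetochore core of KNL1, MIS12 and NDC80 complexes, 2 had enough values. KNL1, the scaffold for checkpoint proteins, was at -0.32 ± 0.20 on 7 arrays, above 0 on 1, and at -0.10 without run 2. NUF2, a subunit of the NDC80 complex, was at 0.19 ± 0.23 on 8 arrays, above 0 on 3, and at -0.30 without run 2. No feature with a listed gene was found for the other three subunits of the MIS12 complex, DSN1, NSL1 and PMF1. Of 20 inner kinetochore genes 8 could be tested, 3 above 0 and 5 below, from -0.18 ± 0.15 for CENPL to 0.31 ± 0.25 for CENPS, which were -0.011 and 0.093 without run 2.

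Of 23 genes listed for the checkpoint and outer kinetochore 13 could be tested, 6 above 0 and 7 below, with a median of -0.062. The list also held the genes of the heterochromatin proteins CBX1, CBX3 and CBX5. CBX3 (0.16) and CBX5 (0.12) were among the 6 above 0, and CBX1 had no feature. PLK1, a kinase that acts at kinetochores, was at -0.39 ± 0.21 and AURKB, the kinase that corrects faulty attachments, at -0.35 ± 0.22 (SE, n = 8). Both lay below 0 under all alternatives run on gene means, but at -0.028 and -0.060 without run 2. Their single features were not examined. BUB3 and MAD2L1, checkpoint proteins named after their values were seen, were above 0 on 8 of 8 arrays, with means of 0.35 ± 0.14 and 0.20 ± 0.12. Of the 3460 rows with 8 values, 48 (1.39%) were above 0 on all 8 arrays. Means below 0 were found for 7 of the 13 tested genes of this list. Over all rows 0 genes of these lists passed in limma's test (adjusted p = 0.87 for PLK1, AURKB, BUB3 and MAD2L1), and 0 passed for the differences between times.

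**Figure D5:**
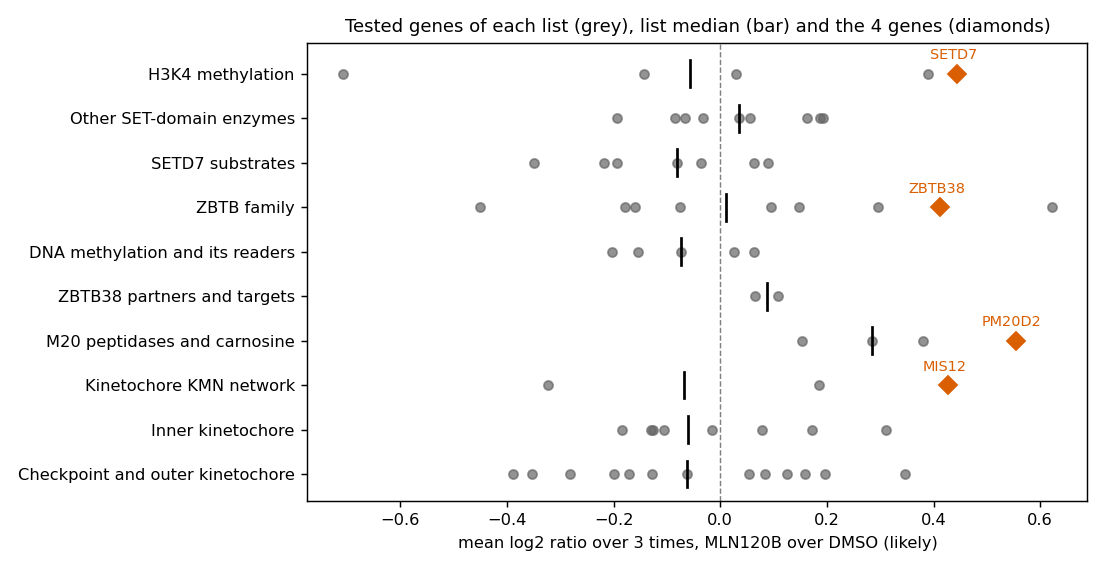
Mean log2 ratio over the 3 times (likely MLN120B over DMSO) for the tested genes of each list as grey points, with the list median as a bar and the 4 genes as diamonds. The 4 genes, chosen for high ratios, lie between 0.41 and 0.55, and the tested genes of the lists lie on both sides of 0, from -0.71 for SETD1A to 0.62 for ZBTB20, which without run 2 are at -0.13 and -0.22.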

How the data were processed

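On each of 8 arrays Cy5 cDNA of L363 cells with MLN120B was hybridised together with Cy3 cDNA of DMSO-treated cells, and RNA came from TRIzol extraction, per the labels' protocols. The data are the log2 ratios that the authors deposited, in a column for each array. Their base was inferred: the largest size, 12.4 on sample 2 at 8 h, is beyond the 11.1 that natural logs of 16-bit intensity ratios allow. Base 2 on the other arrays is assumed. How the authors corrected background, filtered spots and normalized is not given in the sources used here. Intensities were not used, so signal over background is unknown, and precision is limited by the number of arrays.

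The median of each array (-0.48 to 0.001) was subtracted. The platform table lists a single gene for 10169 features, several for 4 and none for 5073. Symbols were brought up to date in RefSeq through Entrez identifiers for 10128 features and accessions for 17, while 24 stayed as listed. The features of a gene were averaged. Rows needed values on at least 2 arrays per time, which 5411 had, 3311 of them named genes.

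With limma 3.58.1 under R 4.3.3, time means were fitted over all arrays (lmFit, eBayes; 5 residual degrees of freedom). Tests were 2-sided and adjusted by Benjamini-Hochberg over all rows, with 0.05 as threshold, and the fit was tested on simulated data. Promoter windows and names are those of RefSeq (GRCh38.p14). Tables and plots were made in Python 3.11.15 using pandas 2.3.3 and matplotlib 3.10.9. In 24 h against 12 h, samples of the same number deviated together from the time means (correlations of 0.20, 0.23 and 0.33 for 3 pairs). Each of these is also a pair of the same run, so a pairing by number and a shared run cannot be told apart. Time differences and their intervals come from the fit without a block. A block for sample number was run as an alternative.

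The 4 genes, the lists and the tests were chosen with earlier results of these data known. Named besides the 4 genes were, for each, the 3 genes of most similar pattern, the measured genes of its own complex or closest family, and the 2 members of each list whose mean was largest in size, in either direction. BUB3, MAD2L1, CBX1, CBX3, CBX5 and DERL2 were named outside this rule. Results were recomputed without centring, with quantile or scale normalization, with looser and stricter filters on missing values, for single features, with a block for sample number or for run (fixed or random), without run 2, with array weights, with robust variances, and without each array in turn. For the genes of the lists, the values given under the alternatives leave out the setting of single features.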

Additional observations from a re-analysis of the deposited data

How the results depend on the processing

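The number of rows past the threshold was 0 for each contrast and depended on some settings. For the mean over the 3 times it was 6 after quantile normalization, 2 with values on at least 1 array at each time, 6 with the run as a fixed block and 0 to 50 with each array left out. With values on at least 1 array at each time it was 3 for 24 h minus 8 h and 5 for 12 h minus 8 h. With each array left out it was 0 to 70 for 24 h minus 8 h, 0 to 2 for 24 h minus 12 h and 0 to 71 for 12 h minus 8 h. The highest of these for the contrasts with 8 h came without sample 1 at 8 h, which left 1 array there. The mean over the 3 times of SETD7, PM20D2 and MIS12 stayed above 0 under the 20 alternatives run for each gene, between 0.31 and 0.49, 0.36 and 0.65, and 0.22 and 0.49. That of ZBTB38 ran from 0.11, for feature B on its own, to 0.52. Differences between times passed under no alternative for the 4 genes, and their signs turned under some. For 24 h minus 8 h and 12 h minus 8 h, SETD7 kept its sign under all 20 alternatives and PM20D2 under 19 of 20. For SETD7, 24 h minus 12 h was 0.10 after quantile and 0.099 after scale normalization, 0.036 with array weights, and -0.17 to 0.099 with each array left out. For ZBTB38, 24 h minus 8 h was 0.060 without run 2, 0.31 for feature A (-0.52 for feature B) and -0.63 to 0.024 with each array left out. Its 24 h minus 12 h difference was 0.013 after scale normalization and 0.19 for feature A (-0.62 for feature B). Its 12 h minus 8 h difference was 0.093 without run 2, 0.11 for feature B, 0.11 for feature A and -0.54 to 0.11 with each array left out. For PM20D2, 24 h minus 8 h was -0.074 without run 2, 12 h minus 8 h was -0.043 after scale normalization, and 24 h minus 12 h was 0.098 after scale normalization and -0.39 to 0.16 with each array left out. For MIS12, 24 h minus 8 h was -0.11 with array weights and -0.14 to 0.32 with each array left out, and 12 h minus 8 h was -0.061 with array weights and -0.011 to 0.35 with each array left out. Its 24 h minus 12 h difference was 0.009 as deposited, 0.056 after quantile and 0.044 after scale normalization, and -0.30 to 0.16 with each array left out. Apart from feature choice, filters and arrays left out, whose construction sets the change, the cause was not tested.

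With sample number as a replicate block, 0 rows passed for any contrast, the mean over the 3 times was 0.42 for SETD7, 0.41 for ZBTB38, 0.54 for PM20D2 and 0.40 for MIS12, and no call changed. Over all 7 pairs of the same number the deviations from the time means correlated at -0.26 to 0.33. The 2 arrays at 8 h deviate from their mean by equal amounts in opposite directions. Their partners of the same number lie in other runs, so whether the numbers pair the 8 h samples with the others could not be judged. With 2 arrays at 8 h, 3 at each later time and no signal intensities, differences between times could not be resolved, large ones included. The 95% intervals reached -1.01 for ZBTB38 (24 h minus 8 h) and 1.45 for PM20D2 (12 h minus 8 h).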
